A study of Homo sapiens with 12 samples.

Results

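The genes described here are 10 regulators of the G1 phase of the cell cycle. The choice was made by gene name, with earlier results of these data known. It holds the D-type cyclins CCND1, CCND2 and CCND3 and the E-type cyclins CCNE1 and CCNE2. It also holds the kinases CDK4, CDK6 and CDK2, and the inhibitors CDKN1A (p21) and CDKN1B (p27). They are 10 of the 15798 genes in a ribosome profiling (Ribo-seq) table of HCT116 cells, an established human colorectal cancer cell line. Cells received 100 nM trametinib, a MEK1/2 inhibitor, or its solvent DMSO for 24 h, and both groups were exposed to cycloheximide, which halts ribosomes on mRNA, shortly before lysis. From each treatment 3 replicates were sequenced as randomly fragmented input RNA and 3 as ribosome footprints, the RNase I resistant mRNA pieces covered by a ribosome, giving 12 libraries in 4 groups of 3. All groups are cultures of a single cell line, so the values describe that line only.

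D-type cyclins assemble with CDK4 or CDK6 when growth factor signaling through MEK and ERK is active. These kinases phosphorylate the retinoblastoma protein RB, which then releases E2F transcription factors, and E2F in turn drives transcription of the E-type cyclins and of many S phase genes. E-type cyclins activate CDK2, while p21 and p27 restrain CDK2 and also take part in the assembly of cyclin D complexes. Among these genes, CCND1 is known as a transcriptional target of ERK signaling in intestinal epithelium and in colorectal cancer.

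The 6 input libraries held 2276693 to 2845568 reading frame counts and the 6 footprint libraries 10127477 to 19181588, so that input was the shallower assay. Of the table, 10663 genes reached 10 counts in 3 or more input libraries and were tested, including 9 of the 10 G1 regulators. All 10 of 10 genes in a list of ERK pathway output fell in input and in footprints, against 16.8% and 25.6% of all genes. Part of this list passed the filter only through the DMSO input libraries, where those genes are high. The list was also chosen with earlier results of these data known, so it is no independent check of the treatment labels. The epithelial markers EPCAM, CDH1, KRT8, KRT18 and KRT19 each held at least 174 counts in every library, whereas PTPRC of blood cells and PECAM1 of endothelium held at most 3. Of these epithelial markers, 3 of 5 rose in input and 4 of 5 in footprints, against 15.4% and 23.9% of all genes, and 0 fell. Of the fibroblast collagens, COL1A1 held 14 to 36 input counts and was not called, whereas COL3A1 rose with trametinib: its input was 0.72 ± 1.25 normalized counts in DMSO and 82.3 ± 22.9 in trametinib, and its footprints were 0.897 ± 0.92 and 96.5 ± 33.2 (SD, n = 3), and it passed the filter only through the trametinib libraries. The part of these changes in the results for G1 regulators was not tested. DMSO replicate 1 stood apart from the other DMSO replicates in both assays: across 7669 genes, the deviations of its input and of its footprint library from their group means correlated at a Pearson's r of 0.816, against 0.181 and 0.343 for the other DMSO replicates. Relative to the other DMSO replicates, the log2 level in this replicate differed by -1.50 in input and -1.14 in footprints for CCNE2, by -0.62 and -1.05 for CCND3, by -0.65 and -0.68 for CDK2, by -0.50 and -0.62 for CCNE1, by -0.60 and -0.24 for CDK6 and by 0.53 and 0.63 for CDKN1A. The changes, ratios and list counts below are therefore also given without this replicate, while the orders of levels and densities include it.

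Levels are normalized counts, the authors' counts divided by a size factor for each library. Changes are log2 of trametinib over DMSO from edgeR's quasi-likelihood test with their standard error (SE), and a gene was called at an adjusted p-value under 0.05. Because libraries are scaled to one another, a change shared by all mRNAs cannot be seen. Where the libraries of both treatments are said to lie apart, this only describes them. How many of all genes or gene pairs separate in this way was not counted. In a bulk lysate, fewer cells of a kind, for example of one cell cycle phase, and less mRNA per cell cannot be told apart.

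In input RNA, 32.1% of all genes tested were called, 15.4% higher and 16.8% lower in trametinib. Of the 9 G1 regulators tested, 1 rose (CDK6), 5 fell (CCND1, CCND3, CCNE2, CDK2 and CDK4) and 3 were not called (CCNE1, CDKN1A and CDKN1B), with a median change of -0.42 against -0.00 over all genes. In footprints, 49.4% of all genes were called, 23.9% higher and 25.6% lower, and the G1 regulators again divided into 1 higher, 5 lower and 3 not called, with the same genes in each class and a median of -0.55 against -0.01. With library totals in place of trimmed means, the median footprint change of all genes shifted to 0.16, and 3577 genes were higher and 1944 lower against 2545 and 2727. CCNE2 entered the tests only through its DMSO input libraries, the ones with at least 10 counts, so its presence among the lower genes is in part set by the filter. When DMSO replicate 1 was left out, 0 G1 regulators were higher and 4 lower in input, and 1 was higher and 6 lower in footprints. Of all genes tested, 1767 were then higher and 1923 lower in input, and 3176 higher and 3247 lower in footprints. These counts are above those with all libraries, and they also stand beside the list counts without this replicate given below.

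**Figure D1:**
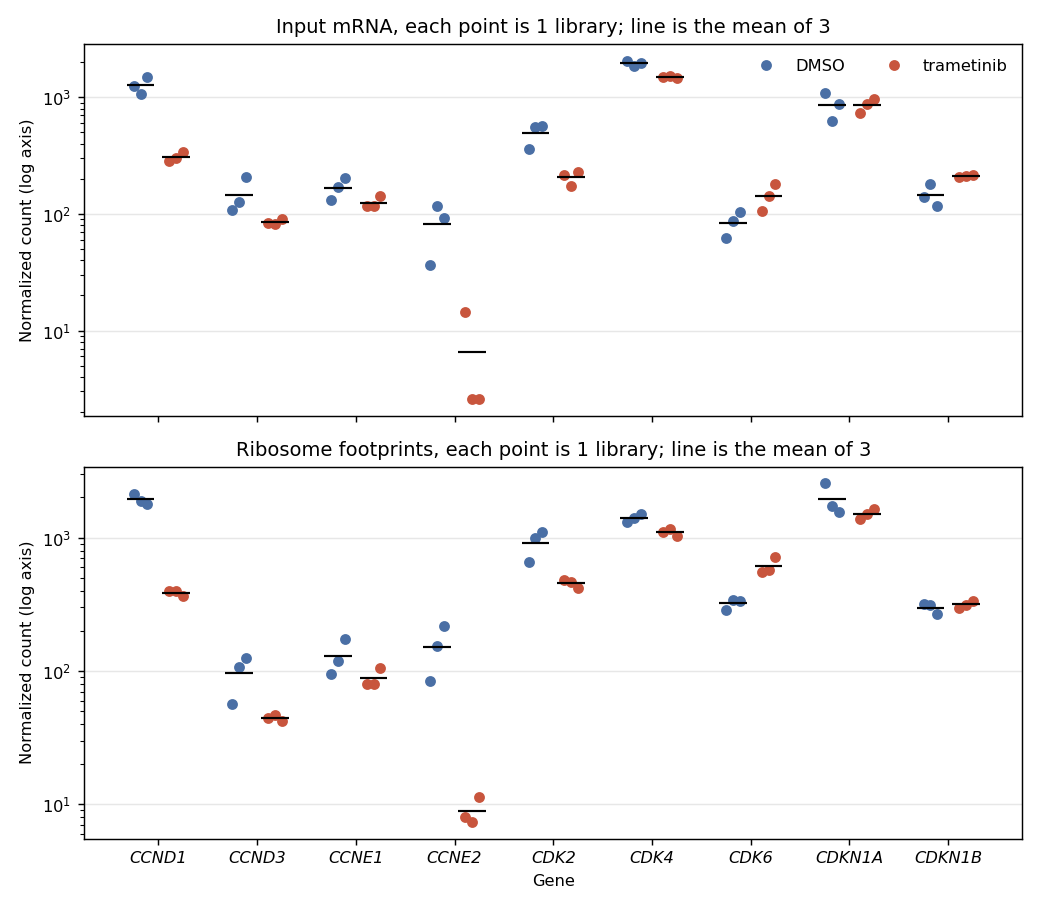
Normalized counts (log axis) of the 9 tested G1 regulators in each of the 6 input libraries (upper plot) and 6 footprint libraries (lower plot), with DMSO in blue, trametinib in red and the mean of 3 libraries as a line. CCND1 and CCNE2 lie far below DMSO in every trametinib library, CDK6 lies above it in both assays, and the CDKN1A libraries of both treatments overlap.

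CCND1, the D-type cyclin gene best known as a target of ERK signaling (chromosome 11, 69641156 to 69654474, plus strand, GRCh38), had 1242, 1067 and 1484 normalized counts in the DMSO input replicates 1 to 3 and 284, 303.7 and 341.9 in the trametinib ones. Its footprints were 2141, 1889 and 1792 in DMSO and 397.8, 397.3 and 364.9 in trametinib. All trametinib libraries were thus far below all DMSO libraries in both assays, and the replicates of a treatment lay close together. Input fell to 24.6% of DMSO (change -2.02, SE 0.18, edgeR adjusted p = 2.67e-06) and footprints to 19.9% (change -2.33, SE 0.12, edgeR adjusted p = 1.46e-06). Without DMSO replicate 1 the changes were -2.04 and -2.24. Across all alternatives, the input change stayed between -2.13 and -1.89 and the footprint change between -2.37 and -2.15, and the gene was called under each of them.

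CCND3, a D-type cyclin with the same kinase partners (chromosome 6, 41934934 to 42050357, minus strand), was the less abundant of the D-type cyclins detected. It had 107.9, 125.3 and 206 normalized counts in DMSO input and 84.23, 82.35 and 89.98 in trametinib input. Its footprints were 56.36, 107.5 and 125.3 in DMSO and 44.55, 46.43 and 42.34 in trametinib. The groups did not overlap in either assay, but the DMSO libraries were widely spread, with replicate 1 the lowest. Input fell to 58.9% of DMSO (change -0.76, SE 0.27, edgeR adjusted p = 0.0447) and footprints to 46.4% (change -1.11, SE 0.27, edgeR adjusted p = 0.00862). Without DMSO replicate 1 the decreases were larger, at -0.94 (edgeR adjusted p = 0.00843) and -1.39 (edgeR adjusted p = 2.99e-06). The footprint call was kept under every alternative, whereas the input call rested on single libraries. It was lost without DMSO input replicate 2 (change -0.87, edgeR adjusted p = 0.0575) or replicate 3 (change -0.43, edgeR adjusted p = 0.160), and without trametinib input replicate 1, 2 or 3 (changes -0.75, -0.74 and -0.81).

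CCND2, the remaining D-type cyclin gene (chromosome 12, 4269771 to 4305353, plus strand), was at 0 counts in 11 of 12 libraries and had 1 count in the footprints of trametinib replicate 1. A count of 0 allows up to 3 counts, which corresponds to 1.05 to 1.32 CPM (counts scaled to the library total) in the input libraries and to 0.156 to 0.296 CPM in the footprint libraries, covering counting error only. It was not tested, and no difference was detectable at this depth.

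Within a library, the ratio of CCND3 to CCND1 needs no scaling between libraries. The log2 ratio of raw counts was -3.15 ± 0.34 in DMSO input and -1.84 ± 0.09 in trametinib input, and -4.40 ± 0.74 against -3.12 ± 0.03 in footprints (SD, n = 3, each with an exact permutation p = 0.1). Both D-type cyclins fell, and CCND1 fell more, so that CCND3 made up a larger part of the D-type cyclin mRNA in every trametinib library than in any DMSO library. A two-sided exact test of 3 against 3 libraries cannot go below 0.1, and adjusted over the 8 ratio tests made here these p-values were 0.114. Without DMSO replicate 1 the ratio differences were 1.12 in input and 0.87 in footprints, against 1.31 and 1.29 with it.

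CCNE2, an E-type cyclin gene and a textbook E2F target (chromosome 8, 94879770 to 94896678, minus strand), showed the strongest decrease of the G1 regulators in both assays. It had 36.67, 116.7 and 91.31 normalized counts in DMSO input and 14.44, 2.573 and 2.571 in trametinib input, where the raw counts were 6, 1 and 1. Footprints were 83.99, 153.7 and 216 in DMSO and 7.987, 7.396 and 11.42 in trametinib. No trametinib library reached any DMSO library, although DMSO replicate 1 held less than the other DMSO replicates. Summed over replicates, the trametinib input counts were 8 against 110, or 8.25% of DMSO after scaling (exact counting interval at 95% confidence, 3.48% to 16.8%), and the footprint counts were 68 against 1050, or 5.79% (4.46% to 7.40%). The intervals cover counting error only. The fitted changes were -3.60 in input (SE 0.61, edgeR adjusted p = 6.85e-04) and -4.10 in footprints (SE 0.38, edgeR adjusted p = 4.71e-05), and without DMSO replicate 1 they were -3.95 and -4.40.

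CCNE1, the other E-type cyclin gene (chromosome 19, 29811991 to 29824312, plus strand), changed far less. Its normalized counts were 131.6, 168.5 and 203.7 in DMSO input and 117.9, 115.8 and 141.4 in trametinib input. In footprints they were 95.41, 119.9 and 172.5 against 79.87, 80.12 and 105.1. The treatments overlapped in both assays, with the DMSO replicate 1 libraries next to the trametinib ones. The changes were -0.42 in input (SE 0.22, edgeR adjusted p = 0.172) and -0.55 in footprints (SE 0.22, edgeR adjusted p = 0.0684), and neither was called. In footprints the call was gained without DMSO replicate 1 (change -0.74, edgeR adjusted p = 0.00223) and with the replicate number as a block (change -0.52, edgeR adjusted p = 0.0244), while the input change without DMSO replicate 1 was -0.56 (edgeR adjusted p = 0.0552). Footprints without DMSO replicate 3 gave -0.27 (edgeR adjusted p = 0.261), so the estimate depended on which DMSO replicates were included.

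The balance between the E-type cyclins was compared within each library. In DMSO footprints the log2 ratio of CCNE2 to CCNE1 counts was 0.17 ± 0.30, and in trametinib it was -3.29 ± 0.11 (SD, n = 3, exact permutation p = 0.1, the smallest possible). The input ratios were -1.16 ± 0.64 and -4.35 ± 1.24 (SD, n = 3, with the same exact permutation p = 0.1). Leaving out DMSO replicate 1 gave differences of -3.63 in footprints and -3.52 in input, against -3.46 and -3.19 with it. DMSO footprints of the genes were about level, whereas CCNE1 carried most E-type cyclin footprints in every trametinib library.

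CDK4, a cyclin D-dependent kinase gene (chromosome 12, 57747727 to 57756013, minus strand), and CDK6, its close relative (chromosome 7, 92604921 to 92836573, minus strand), changed with opposite signs. CDK4 had 2049, 1871 and 1957 normalized counts in DMSO input and 1482, 1531 and 1460 in trametinib input, and its footprints were 1304, 1401 and 1504 against 1094, 1166 and 1028. The groups were tight and separate in both assays, and the decrease was small. Input fell to 76.5% of DMSO (change -0.39, SE 0.13, edgeR adjusted p = 0.0422) and footprints to 78.2% (change -0.35, SE 0.11, edgeR adjusted p = 0.0233). Both calls lay near the threshold. The input call was lost without DMSO replicate 1 (change -0.35, edgeR adjusted p = 0.0559) or 2 (change -0.42) and without any single trametinib replicate (changes from -0.41 to -0.38). The footprint call was kept without DMSO replicate 1 (change -0.40) and lost without DMSO replicate 2 (change -0.35) or 3 (change -0.30), without trametinib replicate 1 (change -0.35) or 3 (change -0.31), and with scaling by library totals (change -0.18, edgeR adjusted p = 0.205).

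CDK6 had 62.55, 86.42 and 103 normalized counts in DMSO input and 105.9, 141.5 and 180 in trametinib input. The input groups touched, since the highest DMSO library lay just under the lowest trametinib one. Footprints were 286.2, 339.4 and 337.7 in DMSO and 553.9, 571.5 and 710.7 in trametinib, clearly apart. CDK6 rose to 171% of DMSO in input (change 0.77, SE 0.27, edgeR adjusted p = 0.0419) and to 191% in footprints (change 0.93, SE 0.13, edgeR adjusted p = 5.10e-04). The footprint increase was called under every alternative and was 0.86 without DMSO replicate 1. The input call was lost without DMSO replicate 1 (change 0.60, edgeR adjusted p = 0.0915) or 2 (change 0.79) and without trametinib replicate 2 (change 0.77) or 3 (change 0.56).

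As a ratio within a library, CDK6 to CDK4 was on the log2 scale -4.55 ± 0.41 in DMSO and -3.41 ± 0.39 in trametinib input, and -2.13 ± 0.07 against -0.85 ± 0.27 in footprints (SD, n = 3, each with an exact permutation p = 0.1). Every trametinib library had a higher ratio than every DMSO library in both assays, but how many other gene pairs separate in this way was not counted. Of the ratios tested, this one had the least spread among DMSO footprints, and without DMSO replicate 1 its differences were 0.92 in input and 1.25 in footprints, against 1.15 and 1.28 with it.

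**Figure D2:**
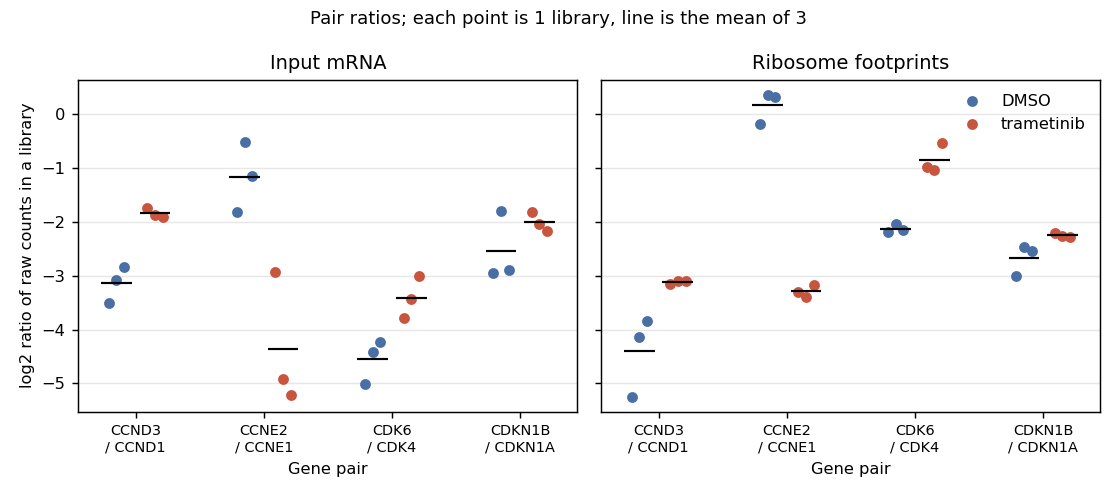
Log2 ratio of raw counts (pseudocount 0.5) for 4 gene pairs within each library, input on the left and footprints on the right, with DMSO in blue, trametinib in red and the mean of 3 libraries as a line. The ratios CCND3 to CCND1 and CDK6 to CDK4 are higher and CCNE2 to CCNE1 is lower in all trametinib libraries, while CDKN1B to CDKN1A overlaps between treatments in input.

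Because CDK4 and CDK6 moved apart, the 250 bases upstream of their RefSeq transcription starts (GRCh38.p14) are shown, 5′ to 3′ on the minus strand. Capitals mark the E-box CACGTG, known to be bound by MYC, and the GC box GGGCGG, known to be bound by SP1, on either strand (CCGCCC is the latter read from the other strand). The CDK4 window is chr12:57752311-57752560, which lies inside the Gencode gene, since that gene begins at 57756013 on the minus strand. The CDK6 window is chr7:92836574-92836823, the one of the RefSeq windows of CDK6 that lies at the Gencode gene start.
CDK4: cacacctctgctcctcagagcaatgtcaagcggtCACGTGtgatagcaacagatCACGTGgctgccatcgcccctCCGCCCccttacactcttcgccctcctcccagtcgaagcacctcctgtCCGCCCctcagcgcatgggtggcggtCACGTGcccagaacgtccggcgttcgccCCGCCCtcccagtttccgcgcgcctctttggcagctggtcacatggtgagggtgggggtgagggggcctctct
CDK6: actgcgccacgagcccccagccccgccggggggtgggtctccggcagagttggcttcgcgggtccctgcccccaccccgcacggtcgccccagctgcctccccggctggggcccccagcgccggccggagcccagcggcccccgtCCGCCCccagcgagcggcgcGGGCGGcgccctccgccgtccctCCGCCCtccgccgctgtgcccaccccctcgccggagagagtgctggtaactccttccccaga
The CDK4 window held 3 E-boxes, beginning 216, 196 and 101 bases before the start, and 3 GC boxes, beginning 175, 127 and 73 bases before it. The CDK6 window shown held 0 E-boxes and 3 GC boxes, beginning 105, 85 and 62 bases before the start. The other CDK6 window, chr7:92833960-92834209, held 0 E-boxes and 0 GC boxes, so the GC boxes depend on the window chosen. Among all 35116 RefSeq windows of this length, 6.3% held the E-box and 42.6% the GC box. RefSeq windows were matched for 6 of the 10 genes (CCND3, CCNE1, CDK4, CDK6, CDKN1A and CDKN1B), and the E-box was found in those of CDK4 alone. A match of letters describes the sequence and does not show that a factor binds there. MYC itself fell, by 0.74 in input (SE 0.16, edgeR adjusted p = 0.00364). Whether this has a part in the small CDK4 decrease was not tested.

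CDK2, the kinase gene partnered by the E-type cyclins (chromosome 12, 55966781 to 55972789, plus strand), fell in both assays. Its normalized counts were 358.1, 559.6 and 561.9 in DMSO input and 216.6, 175 and 228.8 in trametinib input. Its footprints were 653.5, 1002 and 1096 in DMSO and 478.3, 461.4 and 419.6 in trametinib. DMSO replicate 1 was the lowest DMSO library in each assay and still lay above all trametinib libraries. Input fell to 42.2% of DMSO (change -1.25, SE 0.21, edgeR adjusted p = 6.38e-04) and footprints to 49.5% (change -1.01, SE 0.18, edgeR adjusted p = 0.00185). Without DMSO replicate 1 the changes were -1.43 in input and -1.20 in footprints, and CDK2 was called in both assays under every alternative.

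CDKN1A, which encodes the CDK inhibitor p21 (chromosome 6, 36676460 to 36687337, plus strand), was not called in either assay. Its normalized counts were 1087, 624.4 and 878 in DMSO input and 731.6, 869.8 and 964.1 in trametinib input. Its footprints were 2548, 1727 and 1560 in DMSO and 1368, 1502 and 1639 in trametinib. The treatments overlapped in both assays, and DMSO replicate 1 was the highest library of each. The input change was -0.01 (SE 0.20, 95% interval -0.44 to 0.43, edgeR adjusted p = 0.985), so that an increase or decrease within that interval was not detectable here. The footprint change was -0.37 (SE 0.19, edgeR adjusted p = 0.127) and became -0.12 without DMSO replicate 1 and -0.50 without DMSO replicate 3 (edgeR adjusted p = 0.0453), where it was called. Input without DMSO replicate 1 gave 0.20 (edgeR adjusted p = 0.426), the opposite sign.

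CDKN1B, which encodes p27 (chromosome 12, 12685498 to 12722369, plus strand), had 140.2, 179.3 and 117.1 normalized counts in DMSO input and 207, 211 and 213.4 in trametinib input. The trametinib input libraries were nearly equal and all lay above the DMSO ones. In footprints the values were 315.7, 313.3 and 268.7 in DMSO and 297.4, 313.9 and 336.3 in trametinib, which overlapped. The input change of 0.54 (SE 0.20, edgeR adjusted p = 0.0586) did not pass the threshold, and the footprint change was 0.08 (SE 0.11, 95% interval -0.18 to 0.34, edgeR adjusted p = 0.591). Without DMSO replicate 1 these changes were 0.51 and 0.13, and without DMSO replicate 2 the input change was 0.71 and was called (edgeR adjusted p = 0.0314). The log2 ratio of CDKN1B to CDKN1A within a library was -2.54 ± 0.65 and -2.01 ± 0.18 in DMSO and trametinib input (SD, n = 3, exact permutation p = 0.4) and -2.67 ± 0.30 and -2.25 ± 0.04 in footprints (SD, n = 3, exact permutation p = 0.1). The input difference of 0.54 was 0.34 without DMSO replicate 1, 0.91 without replicate 2 and 0.36 without replicate 3, and the footprint difference of 0.42 was 0.25 without DMSO replicate 1, so that its size depended on single DMSO libraries.

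Ribosome density was calculated as footprints over input to ask whether the number of ribosomes per mRNA of a G1 regulator changed beyond the change in its mRNA. In this test, the interaction of assay and treatment over all 12 libraries, 0.910% of all genes were called, 0.0938% (10 genes) higher and 0.816% (87 genes) lower. Of the 9 G1 regulators, 0 were called by edgeR, 0 had an unadjusted p-value under 0.05 and 0 were called by DESeq2. Their changes ranged from -0.43 to 0.31 with a median of -0.23, against 0.07 over all genes, and 6 of 9 were below 0. With a term that pairs the input and footprint library made from the same lysate, 31 genes were called higher and 127 lower, and with library totals 27 were higher and 78 lower, none of them a G1 regulator. The median SE over all genes was 0.27 for ribosome density, against 0.22 for input and 0.15 for footprints.

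The cyclin mRNAs had wide intervals or small changes in ribosome density. For CCND1 the log2 density of DMSO replicates 1 to 3 was 0.78, 0.82 and 0.27, and that of trametinib was 0.48, 0.38 and 0.09. The replicates overlapped, and the density change was -0.23 (SE 0.20, 95% interval -0.65 to 0.20, edgeR adjusted p = 0.847), far smaller than the change of its input. CCND3 had a density change of -0.27 (95% interval -1.15 to 0.61), CCNE1 of -0.06 (95% interval -0.77 to 0.65) and CCNE2 of -0.43 (95% interval -2.56 to 1.71). The CCNE2 estimate rested on 8 trametinib input counts and turned to 0.92 without trametinib input replicate 1, so its density could not be determined at this depth. The density changes without DMSO replicate 1 in both assays were -0.16 for CCND1, -0.40 for CCND3, -0.13 for CCNE1 and -0.40 for CCNE2.

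Among the kinases, CDK2 had a density change of 0.31 (SE 0.29, 95% interval -0.32 to 0.93), CDK6 of 0.24 (SE 0.29, 95% interval -0.38 to 0.85) and CDK4 of 0.11 (SE 0.15, 95% interval -0.22 to 0.44). All of these estimates were above 0 and none was called. The CDK4 interval was the narrowest of the kinases, and without DMSO replicate 1 in both assays its change was 0.00, while those of CDK2 and CDK6 were 0.28 and 0.31.

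For the inhibitors the estimates were below 0. CDKN1B had log2 densities of 1.16, 0.80 and 1.19 in DMSO and of 0.52, 0.57 and 0.65 in trametinib, which did not overlap. How many of all genes separate in this way was not counted, so the separation is not read as a result. Its density change was -0.38 (SE 0.21, 95% interval -0.83 to 0.07, edgeR adjusted p = 0.667), was not called under any alternative and was -0.33 without DMSO replicate 1 in both assays. CDKN1A had log2 densities of 1.23, 1.47 and 0.83 in DMSO and of 0.90, 0.79 and 0.76 in trametinib, with a density change of -0.29 (SE 0.30, 95% interval -0.92 to 0.35, edgeR adjusted p = 0.889). Its treatments overlapped, and without DMSO replicate 1 in both assays the change was -0.27.

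**Figure D3:**
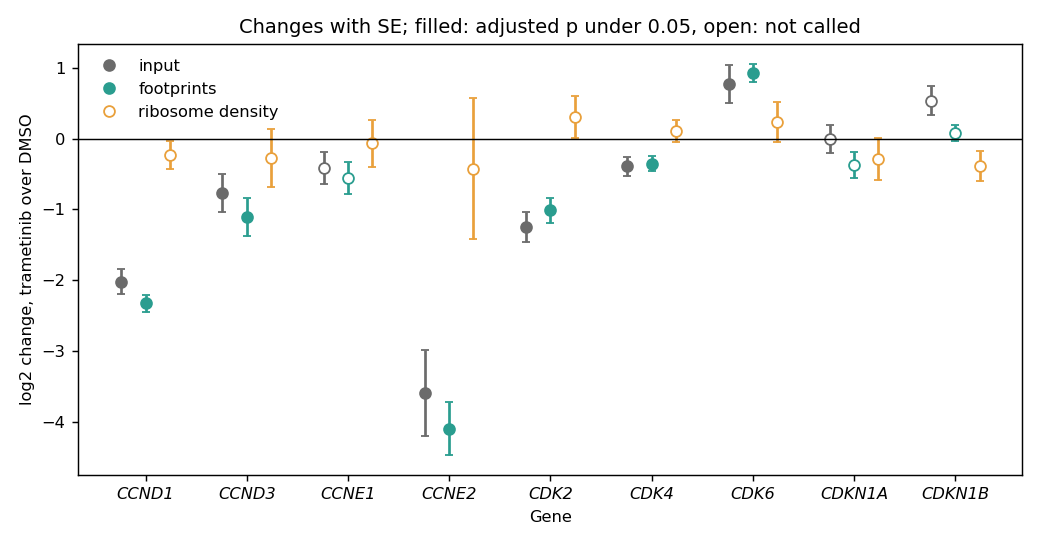
Log2 change of trametinib over DMSO with its SE in input (grey), footprints (green) and ribosome density (orange) for the 9 tested G1 regulators, filled where the edgeR adjusted p-value was under 0.05. Input and footprint changes of CCND1, CCND3, CCNE2, CDK2, CDK4 and CDK6 are filled and lie on the same side of 0, whereas all density changes are open and range from -0.43 to 0.31.

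While density relative to other mRNAs did not detectably change, it differed widely between the G1 regulators. CDK6 had the highest log2 density, 1.94 ± 0.24 in DMSO and 2.12 ± 0.22 in trametinib (SD, n = 3), which placed it at the 98.2 and 98.4 percentile of the genes tested. Its close relative CDK4 had -0.48 ± 0.15 and -0.45 ± 0.06 (SD, n = 3), at the 30.4 and 33.1 percentile. CDK6 mRNA thus carried more footprints per input read than CDK4 mRNA in every replicate of both treatments. CDKN1A, CDKN1B and CDK2 had mean log2 densities in DMSO of 1.17, 1.05 and 0.89, CCND1 of 0.63, CCNE1 of -0.41 and CCND3 of -0.63. D-type cyclins therefore differed among themselves, with CCND1 at the 74.4 and CCND3 at the 25.9 percentile in DMSO.

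**Figure D4:**
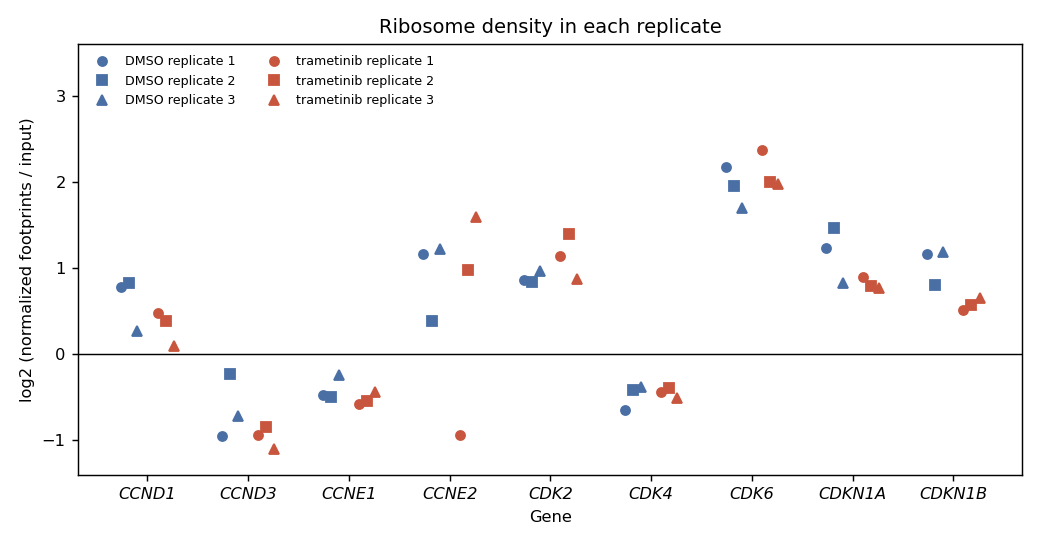
Log2 ratio of normalized footprints to normalized input in each of 3 DMSO (blue) and 3 trametinib (red) replicates, with the replicate number shown by the symbol. CDK6 lies above the other genes in each replicate, CDKN1B separates between treatments without passing the test, and CCNE2 in trametinib is spread from -0.94 to 1.60.

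Levels between genes were compared per kilobase (kb) of coding sequence. In DMSO footprints the order was CDKN1A (3953 ± 1074 normalized counts per kb), CCND1 (2193 ± 203), CDK4 (1544 ± 110), CDK2 (1026 ± 261), CDKN1B (504 ± 45) and CDK6 (328 ± 31), with SD over 3 libraries. CCNE2, CCND3 and CCNE1 followed at 125, 110 and 105 normalized counts per kb, with libraries that overlapped. In trametinib footprints the order was CDKN1A (3055 ± 275), CDK4 (1206 ± 76), CDK6 (626 ± 88), CDKN1B (532 ± 33), CDK2 (507 ± 34) and CCND1 (437 ± 21), where CDKN1B and CDK2 overlapped. CCND1 thus went from the second to the sixth place and CDK6 from the sixth to the third, and CCNE2 became the lowest of the G1 regulators tested, at 7.37 normalized counts per kb. In DMSO input the order began with CDK4 (2155 ± 98), CDKN1A (1754 ± 471) and CCND1 (1429 ± 237), where CDKN1A overlapped with both others, and CDK6 (85.9 ± 20.8) and CCNE2 (67.3 ± 33.7) came last. CDK6 mRNA was thus among the scarcest of the G1 regulators in DMSO input, below CCNE1 and CCND3, but not in DMSO footprints. In trametinib input CDKN1A (1738 ± 238) and CDK4 (1641 ± 40) came first and overlapped, followed by CDKN1B (354 ± 5.46) and CCND1 (350 ± 33), which overlapped as well.

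Other inhibitors of the G1 kinases were compared as a list of 5, of which 4 were tested. In each assay 1 of these 4 rose and 1 fell. Among all genes tested, 15.4% rose and 16.8% fell in input, while 23.9% rose and 25.6% fell in footprints. The footprint counts of this list were thus near the shares of all genes. In input CDKN1C, which encodes the CIP/KIP inhibitor p57, rose (change 1.06, SE 0.24, edgeR adjusted p = 0.00422) and CDKN2C, which encodes the INK4 inhibitor p18, fell (change -2.34, SE 0.50, edgeR adjusted p = 0.00329). CDKN2C entered the tests only through its DMSO input libraries, where it is high. In footprints CDKN1C rose again (change 0.84) and CDKN2D, the INK4 inhibitor p19, fell (change -1.15, SE 0.23, edgeR adjusted p = 0.00314). CDKN2C footprints were low, at 3.39 ± 1.72 normalized counts in DMSO and 5.83 ± 2.41 in trametinib (SD, n = 3), and were not called. Its density change of 3.18 was the largest over these lists and did not pass the threshold (SE 0.73, edgeR adjusted p = 0.0661), which it did without DMSO replicate 1 in both assays (change 2.87, edgeR adjusted p = 0.0469). The other counts of this list were the same without that replicate.

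Enzymes that activate or restrain the CDKs formed a list of 6. In input 0 rose and 2 fell, the CDK-inhibiting kinase WEE1 (change -1.81, SE 0.18, edgeR adjusted p = 9.29e-06) and the CDK-activating phosphatase CDC25A (change -2.02, SE 0.32, edgeR adjusted p = 3.94e-04). In footprints 3 fell, WEE1 (change -1.64), CDC25A (change -3.15, SE 0.35, edgeR adjusted p = 1.32e-04) and MNAT1, the assembly factor of the CDK-activating kinase (change -0.43), and 0 rose. The density change with the lowest p-value was -1.05 for CDC25A (edgeR adjusted p = 0.632). The counts of this list were again 2 and 3 without DMSO replicate 1. Of 10 genes for the turnover of G1 regulators, 3 fell and 0 rose in each assay, near the 25.6% of all genes that were lower in footprints and above the 16.8% in input, led by CKS1B, a cofactor for the degradation of p27 (changes -1.47 and -1.28, SE 0.20 and 0.18, edgeR adjusted p = 1.10e-04 and 5.11e-04). The other genes that fell were the deubiquitinase gene USP28 (change -0.62) and the ubiquitin ligase receptor gene DCAF1 (change -0.71) in input, and DCAF1 (change -0.36) and the F-box gene FBXO4 (change -0.51) in footprints. The lowest density p-value there was that of DCAF1 (change 0.42, edgeR adjusted p = 0.530). When DMSO replicate 1 was left out, 4 turnover genes fell in input and 5 in footprints.

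Downstream of the G1 kinases, 9 of 13 RB family, E2F and DP genes fell and 1 rose in input, with a median change of -0.78. In footprints 8 fell and 1 rose, with a median of -0.51. Of all genes, 16.8% were lower and 15.4% higher in input, and 25.6% lower and 23.9% higher in footprints. E2F7, a repressive E2F, had the lowest p-value in both (changes -3.83 and -4.04, SE 0.27 and 0.20, edgeR adjusted p = 3.73e-07 and 1.30e-06), and E2F1, an activating one, changed by -4.28 and -3.60. RBL2, which encodes the RB relative p130 found with E2F in resting cells, was the gene that rose (changes 0.58 and 0.52), while RB1 fell (changes -0.63 and -0.34). E2F1, E2F7 and E2F8 entered the tests only through the DMSO input libraries where they are high. The lowest density p-value was that of E2F4 (change 0.67, edgeR adjusted p = 0.172). In this list 9 genes fell and 1 rose in input without DMSO replicate 1, and 9 fell and 2 rose in footprints. All 5 of 5 S and M phase cyclins and CDK1 fell in both assays, with medians of -3.57 in input and -4.00 in footprints, and did so without DMSO replicate 1 as well. CCNA2, the cyclin A gene of S phase, changed by -4.91 in input (SE 0.24, edgeR adjusted p = 3.31e-08), and CCNB2, a mitotic cyclin gene, by -3.98 in footprints (SE 0.18, edgeR adjusted p = 8.25e-07). CCNB2 also had the lowest density p-value of that list (change -1.003, edgeR adjusted p = 0.223).

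Of 12 transcription factors known to act on the G1 regulators, 7 fell and 1 rose in input and 8 fell and 1 rose in footprints, with medians of -1.09 and -1.31. The shares of all genes were 16.8% lower and 15.4% higher in input, and 25.6% lower and 23.9% higher in footprints. EGR1, an immediate early gene, had the lowest p-value in input (change -5.50, SE 0.36, edgeR adjusted p = 2.30e-07) and ETV4, an ETS factor induced by ERK signaling, in footprints (change -4.51, SE 0.17, edgeR adjusted p = 3.69e-07). FOXO1, a factor that growth factor signaling restrains and that is known to act on CDKN1B, rose (changes 1.33 and 0.70). FOXO1 passed the filter only through the trametinib input libraries where it is high, and EGR1, ETV4 and ETV5 only through the DMSO ones. Leaving out DMSO replicate 1, 7 factors fell and 2 rose in input and 8 fell and 3 rose in footprints, with medians of -0.76 and -0.90. FOS had the lowest density p-value of the list (change -0.78, edgeR adjusted p = 0.607), and 0 genes of any of these lists were called for ribosome density with all libraries.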

How the data were processed

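Input RNA and ribosome footprints of HCT116 cells were analysed from one deposited table. The authors trimmed adapters, used Bowtie (version 1.2.2 in the submitters' processing notes) to set aside rRNA and tRNA reads, mapped the rest to Gencode V38 basic transcripts and counted reads of 25 to 35 nt inside reading frames of a single gene symbol. Input was counted on the reading frame too, and reads shared by several symbols were left out, so that closely related genes are measured on the sequence they do not share. The deposited raw counts are whole numbers and were used for all tests. The deposited normalized values, a signal in which the authors divided each count by a size factor per library (DESeq2 1.46.0), are printed as levels. Recomputed size factors equalled these in 12 of 12 libraries within a tolerance of 0.001. Columns with the authors' own log2 fold changes and adjusted p-values and with gene annotations were not used, and 0 value columns were left unmapped.

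Groups and replicate numbers came from the sample labels. The study calls its replicates biological, while the labels give only their numbers, so p-values measure the spread between these samples, which may be technical. The main test was edgeR 4.0.16 (R 4.3.3), glmQLFit and glmQLFTest on counts scaled by TMM (trimmed mean of M values), with Benjamini-Hochberg adjustment over the 10663 genes that reached 10 counts in 3 or more input libraries (12000 genes pass when libraries of either assay count). Input and footprint changes were fitted on the 6 libraries of each assay, and ribosome density as the interaction of assay and treatment over 12 libraries. This density fit held no term for the shared lysate, so the density SEs, intervals and p-values of single genes leave out that pairing. The SE was derived from the F statistic. Ratios within a library used a pseudocount of 0.5 and two-sided exact permutation tests. Alternatives were other scalings and filters, DESeq2 1.42.0, limma-trend 3.58.1, replicate blocks and leaving out each library. The edgeR fits of input, footprints and density were run on simulated counts with known changes before the deposited counts. Coordinates and coding lengths are from Gencode v44 (GRCh38), with a length for 10588 of the genes tested, and promoters from RefSeq (GRCh38.p14).

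Over 7669 genes, same-numbered libraries of both treatments deviated from their group means with correlations of 0.116, 0.133 and 0.294 in footprints and of 0.0680, 0.0484 and 0.334 in input. By a rule of over 0.1 for each pair, the footprint libraries passed and the input libraries did not. Input and footprint RNA came from the same lysate by the study's methods, so a number pairs the treatments in both assays or in neither. Within trametinib, input and footprint libraries of the same lysate correlated at 0.141, 0.0803 and -0.122. A low correlation therefore does not show that libraries are unpaired, and the rule cannot decide whether the numbers pair the treatments.

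The genes described and all lists were chosen with earlier results of these data known. Named are all 10 G1 regulators, and of each further list except ERK pathway output and the cell markers the gene with the lowest adjusted p in each comparison and genes on which a result turns. RBL2, RB1, E2F1, CDKN1C, MNAT1, USP28, DCAF1, FBXO4, FOXO1 and MYC were named as such.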

Additional observations from a re-analysis of the deposited data

How the results depend on the processing

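Of 477 alternative values for the changes of single G1 regulators, 434 kept their direction and side of the threshold, 24 lost a call, 9 gained one and 10 changed sign. The ratios within a library kept their direction in 56 of 56. They were not judged against a threshold, which their exact test cannot pass with so few libraries. CCND1, CCNE2 and CDK2 were called in both assays, and CCND3 and CDK6 in footprints, under every alternative run. The number of G1 regulators higher in input was 1 and became 2 at an adjusted p-value under 0.1, 2 with the replicate block, 2 in one fit over all libraries (CDKN1B in each) and 0 with DESeq2. Leaving out each library in turn gave 0 to 1 higher and 3 to 4 lower in input, against 5 lower with all libraries, so that each omission lost a lower call. Whether the replicate numbers pair the treatments could not be decided. With the replicate block, CDKN1B in input had 0.55 (edgeR adjusted p = 0.0374) and was called. Beside this call and that of CCNE1 in footprints, the replicate block changed no call of a G1 regulator. CCND3 in input was lost with DESeq2, limma-trend and one fit over all libraries, CDK6 in input with DESeq2 and CDK4 in input without a filter on low counts. CCNE1 in footprints was called by DESeq2 (adjusted p = 0.0488).

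Ribosome density was higher for 10 genes, a count that became 30 at an adjusted p-value under 0.1, 5 with median-of-ratios scaling, 27 with library totals, 6 with a filter on libraries of either assay, 37 with DESeq2, 31 with the dish as a replicate block, 4 with TMM within each assay and 21 without DMSO replicate 1 in both assays. The last alternative and the list counts without DMSO replicate 1 were added after the data were examined. Lower ribosome density was found for 87 genes and for 150 with DESeq2. Leaving out each library gave 1 to 12 genes with higher density and 49 to 101 with lower density, the lowest without trametinib footprint replicate 2, and 1069 to 1767 genes higher in input, the lowest without trametinib input replicate 2. The causes were not tested.

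Signs changed for CDKN1A in input, at 0.021 with limma-trend, 0.018 with the replicate block, and 0.20, 0.01 and 0.10 without DMSO replicate 1, DMSO replicate 3 or trametinib replicate 1, within a range of -0.20 to 0.20 over single libraries left out. They changed for CCNE1 density, at 0.048 with library totals and at 0.09, 0.22 and 0.00 without DMSO input replicate 1, DMSO footprint replicate 3 or trametinib footprint replicate 2 (range -0.26 to 0.22), and for CCNE2 density, at 0.92 without trametinib input replicate 1 (range -0.85 to 0.92). The largest SEs of density were those of CCNE2, CCND3 and CCNE1, at 0.998, 0.41 and 0.33, and CCNE2 and CCND3 had the lowest trametinib input counts of the G1 regulators tested.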
